A study of Mus musculus with 6 samples.

Results

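Of the 14610 annotated-block probe sets tested on these arrays, 766 carried 2 or more gene symbols in the platform annotation, and these 766 shared probe sets are described here. They were selected by annotation alone, with no expression value used. A further 11229 probe sets carried 1 symbol and 2615 carried none. The deposited table listed 20220 probe sets, of which 5610 lay in an unannotated block left out of the tests.

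A shared probe set reads several genes at once. Its short probes match stretches that paralogues have kept alike, that a processed pseudogene has copied from its parent gene, that a small RNA and its host gene hold in common, or that overlapping genes both transcribe. The genes most often read this way are those of old multigene families, such as histones, globins and olfactory receptors, and the heavily transcribed housekeeping genes that have left many pseudogenes. One intensity is then reported for all of the named genes, so no value below can be assigned to a single gene.

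RNA came from LKS-Slam cells, the lineage-negative, Kit-positive, Sca-1-positive marrow fraction sorted further on SLAM-family antigens to enrich hematopoietic stem cells. The group labelled Zeb2-KO (3 arrays) had floxed Zeb2 alleles and the Mx1-Cre transgene, whose promoter responds to interferon in many tissues besides blood, so deletion is not limited to the sorted cells. The WT group (3 arrays) was labelled C57Bl/6, with no Cre transgene named, and the strain of the other group was not given. Both groups were given polyinosinic-polycytidylic acid (pIC), which provokes interferon, at 6 weeks of age, and marrow was collected 8 weeks afterwards at a total age of 14 weeks.

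Zeb2, a zinc finger transcription factor and the gene to be deleted, had a single-symbol probe set at log2 intensities of 7.79, 9.13 and 8.96 on the arrays labelled Zeb2-KO, against 6.58, 7.51 and 7.34 on WT arrays. The signal thus lay higher where the gene should have been removed (difference 1.48, SE 0.40, limma adjusted p = 0.581), and whether the probes lie in the deleted part is not known. For this reason the groups are called by their labels throughout. The stem cell genes Kit (8.998 to 10.2 over the 6 arrays) and Slamf1 (5.76 to 9.01) were both measured. Of the 10 measured genes on the stem cell list, 4 lay higher on the arrays labelled Zeb2-KO and 6 lower (median -0.25). Kit (0.53) and Slamf1 (1.30) were among the higher ones, and Cd48 (-1.02) and Cd34 (-0.69) among the lower ones. Single arrays weighed heavily here. On WT replicate 1 Slamf1 read 5.76 against 8.02 and 7.94 on the other WT arrays, and Kit 8.998 against 10.06 and 9.89. Cd34 read 6.32 on replicate 1 of the arrays labelled Zeb2-KO, against 7.90 and 7.69 on the others of that group. Among markers of other cells, all 6 measured erythroid genes lay higher on the arrays labelled Zeb2-KO (summed intensity 3014 to 3466 against 940 to 1370 in WT), and all 9 measured B lymphoid genes lay lower (899 to 1474 against 1540 to 3130). Megakaryocyte and platelet genes lay higher in 9 of 10 cases (3467 to 6239 against 1136 to 2098), and monocyte and dendritic genes lay lower in 8 of 9 (1721 to 2468 against 2321 to 3783). The other lists were mixed. Granulocyte and mast genes had 2 higher and 3 lower (417 to 1414 against 338 to 389). T and NK lymphoid genes also had 2 higher and 3 lower (298 to 648 against 291 to 350). The sums are of linear intensities, so the brightest genes weigh most in them. On the arrays labelled Zeb2-KO these were Car2 (log2 11.1 to 11.3) for the erythroid list and Pf4 (10.3 to 11.3) for the platelet list. Single genes could overlap: Car1 read 5.47 on replicate 1 of these arrays, below every WT array (5.77 to 7.44). WT replicate 1 stood furthest from the others, with a mean correlation of 0.841 to them against 0.886 to 0.908 for the other arrays. The interquartile range of log2 values ran from 1.83 to 2.40 on the arrays labelled Zeb2-KO and from 1.59 to 2.03 on the WT arrays. This spread thus went partly with the group, and the 2 cannot be fully told apart on 6 arrays. The adjustment for array spread used below can therefore also take out part of a group difference. Its values are imprecise (lowest limma adjusted p of a shared probe set 0.972) and are given as a description. In sorted bulk samples, fewer cells of a type and less RNA per cell cannot be told apart. The labels call the samples biological replicates, and p-values measure the spread between these 3 and 3 samples.

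Some genes named together are also alike in the bases before their start sites. Those bases are not the transcribed stretches that the probes read, and the probes' own sequences were not examined. Most pairs were less alike there: over 1919 pairs of genes named together, the 250 bases before the start had a median identity of 54.6%. Sequences are from RefSeq on GRCm38.p6, in which 786 of the 1145 symbols named by shared probe sets had a promoter entry and all 12 microRNA genes had mature sequences. Mterf1a and Mterf1b, both described as mitochondrial transcription termination factors, lie on opposite strands of chromosome 5, and 2 shared probe sets carry exactly this pair of names. The 120 bases before each start site are shown because they are almost the same sequence, with the longest run that both contain (113 bases) in capitals. Mterf1a is at chr5:3893934-3894053 on the minus strand and Mterf1b at chr5:4192247-4192366 on the plus strand.
Mterf1a: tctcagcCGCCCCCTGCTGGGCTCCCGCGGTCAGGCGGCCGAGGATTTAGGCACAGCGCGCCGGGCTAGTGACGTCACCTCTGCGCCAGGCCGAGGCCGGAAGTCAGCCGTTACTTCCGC
Mterf1b: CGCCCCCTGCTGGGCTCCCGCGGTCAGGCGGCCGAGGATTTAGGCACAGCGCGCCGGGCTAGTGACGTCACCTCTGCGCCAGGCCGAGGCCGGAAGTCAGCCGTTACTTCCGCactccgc

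The Bcl2a1 genes encode A1, an anti-apoptotic protein of the BCL2 family used by blood cells, and 3 shared probe sets carry the names Bcl2a1a, Bcl2a1b, Bcl2a1c and Bcl2a1d. Over the 250 bases before the start, Bcl2a1a and Bcl2a1d were 92.97% identical and Bcl2a1a and Bcl2a1b 69.7% identical in a global alignment, with Bcl2a1c further away at 36.7% to Bcl2a1a. The last 120 of these bases are shown for the 3 alike genes, with the first of the longest runs common to all of them (31 bases) in capitals. Another common run of 31 bases, after a single differing base, is left in lower case. They lie at chr9:88956800-88956919 (plus strand, Bcl2a1a), chr9:89199153-89199272 (plus strand, Bcl2a1b) and chr9:88731851-88731970 (minus strand, Bcl2a1d).
Bcl2a1a: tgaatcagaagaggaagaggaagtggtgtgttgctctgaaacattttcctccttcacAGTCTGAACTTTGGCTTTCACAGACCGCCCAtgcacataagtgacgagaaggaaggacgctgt
Bcl2a1b: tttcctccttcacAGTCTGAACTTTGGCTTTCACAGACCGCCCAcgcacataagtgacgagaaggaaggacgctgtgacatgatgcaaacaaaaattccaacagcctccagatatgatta
Bcl2a1d: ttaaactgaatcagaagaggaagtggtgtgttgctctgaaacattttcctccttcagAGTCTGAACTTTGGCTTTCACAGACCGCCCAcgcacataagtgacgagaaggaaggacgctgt

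The adult beta-globin genes Hbb-bs and Hbb-bt are read together by 2 probe sets that also name Hbb-b1 and Hbb-b2. Their 250 upstream bases were 70.9% identical. The last 120 are shown because the beta-globin set 10566254 had the highest difference of all shared probe sets. Capitals mark matches on either strand to the TATA motif TATAAA, the CCAAT motif (the letters of its name), the GATA motif AGATAA and the CACC motif CCACCC. Hbb-bs (chr7:103827929-103828048, minus strand) held 1 CCAAT, and Hbb-bt (chr7:103813924-103814043, minus strand) held 3 CCAAT matches, 2 of them on the other strand, and 1 TATAAA. No match overlapped another. Over 27025 promoter windows of the same length, CCAAT was present in 22.1%, TATAAA in 6.76%, CCACCC in 16.2% and AGATAA in 4.44%.
Hbb-bs: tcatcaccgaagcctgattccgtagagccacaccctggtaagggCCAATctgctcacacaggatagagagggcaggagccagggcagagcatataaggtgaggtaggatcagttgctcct
Hbb-bt: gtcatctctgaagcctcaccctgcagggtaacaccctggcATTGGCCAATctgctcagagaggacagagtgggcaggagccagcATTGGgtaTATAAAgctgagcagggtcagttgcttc

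MicroRNAs show the same crowding at a smaller scale. The let-7 microRNAs let-7b and let-7c, which restrain growth genes in many tissues, lie next to each other within the long RNA Lncppara on chromosome 15 and each has 1 probe set shared with it. Their 5p strands share the seed (bases 2 to 8, in capitals) and differ only by G17A, counted from the 5′ end of let-7b. The genes Mir3084-1 and Mir3084-2 yield the same mature pair from different places on chromosome 19, and both lie with Snora19 on 2 probe sets. The mature strands lie at chr15:85707325-85707346 (let-7b-5p), chr15:85706616-85706637 (let-7c-5p) and, for miR-3084-5p, chr19:24942276-24942297 and chr19:60774370-60774391 on the minus strand.
mmu-let-7b-5p: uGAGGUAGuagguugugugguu
mmu-let-7c-5p: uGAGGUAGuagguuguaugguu
mmu-miR-3084-5p: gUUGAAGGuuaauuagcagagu

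The 766 probe sets came down to fewer independent measurements. They carried 429 different combinations of symbols. Of the 766 probe sets 369 had 2 symbols and 73 had 10 or more, up to 20. Values identical on all 6 arrays to 6 decimals of log2 were found for 123 shared probe sets (16.1%), against 0.686% of those with 1 symbol and 5.01% of those with none, which left 686 distinct profiles. The largest identical block held 18 of the 24 probe sets for Snord116l1, Snord116l2 and Gm26504, the first 2 being imprinted small nucleolar RNAs of the Prader-Willi region. For 926 of the 1145 symbols no probe set of their own was present, so these genes were read only in company. The named genes lay on 1 chromosome for 502 probe sets and on several for 264.

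No shared probe set passed an adjusted p of 0.05 (limma, Benjamini-Hochberg over all 14610, lowest 0.517), where 0.0137% of all tested did, that is 2 probe sets. At an unadjusted p under 0.05 there were 52 shared probe sets (6.79%) beside 7.02% of all tested, 41 of them higher on the arrays labelled Zeb2-KO (5.69% of all tested) and 11 lower (1.33%). At an unadjusted p under 0.01 with at least 1.5-fold there were 12 (1.57%) beside 1.56%. Of these, 10 lay higher (1.35% of all tested) and 2 lower (0.212%). The groups did not overlap for 88 shared probe sets (11.5%) beside 13.2%, of which 54 lay higher (6.9% of all tested) and 34 lower (6.26%). A difference of at least 1.5-fold was found for 112 (14.6%) beside 16.6%, 87 higher (12.9% of all tested) and 25 lower (3.68%). These shares lay near the background of all tested probe sets.

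The median difference was 0.03 over the shared probe sets and -0.09 over all tested, and 390 of 766 (50.9%) lay higher beside 44.6%, with 55.4% of all tested lower. The difference varied with the level. The median of all tested probe sets was 0.18 for bright ones (mean log2 at or above 6.63, the median level) and -0.23 for dim ones, and the shared ones gave 0.22 and -0.28. Bright probe sets made up 468 of the 766 (61.1%). Bright and dim medians are given below for the kinds of sharing, some of which did not follow this pattern.

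By the kind of sharing, the 225 probe sets that joined a gene to a pseudogene had a median of 0.26, and 190 of them lay higher. The 198 bright ones had a median of 0.26 and the 27 dim ones 0.19 with 18 higher, where all tested dim probe sets had -0.23. After adjustment for each array's interquartile range (array spread below) the median of the 225 was 0.01 and 115 lay higher. Leaving out WT replicate 1 instead gave a median of 0.12 with 146 higher. The 225 carried 98 different combinations of symbols. The 287 probe sets of families with like names had a median of -0.23 with 98 higher, split between 130 bright ones at 0.28 and 157 dim ones at -0.29. After the same adjustment the median of the 287 was 0.02. The 68 probe sets with a small RNA had a median of -0.42 with 23 higher, but this rested on WT replicate 1: without it the median was 0.16 and 38 lay higher. With all arrays its 32 bright ones stood at 0.03 and its 36 dim ones at -0.48. The 54 sets that joined other named genes had a median of 0.10 (bright 0.10, dim -0.06) and the 13 that joined overlapping named genes 0.18 (bright 0.18, dim 0.06). The 65 that joined a gene to a predicted one had -0.06 (bright 0.12, dim -0.25). The 50 made only of predicted or clone-named genes had -0.36 with 10 higher, and here bright ones lay lower too (-0.37, 6 of 22 higher; dim -0.31). For probe sets whose genes lay on several chromosomes the median was 0.26 (221 of 264 higher) and for those on 1 chromosome -0.24 (169 of 502 higher). Of the 264, 246 were bright, and of the 502, 222. The bright ones had medians of 0.26 (several chromosomes) and 0.07 (1 chromosome), and the dim ones 0.17 (12 of 18 higher) and -0.30 (50 of 280 higher).

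**Figure D1:**
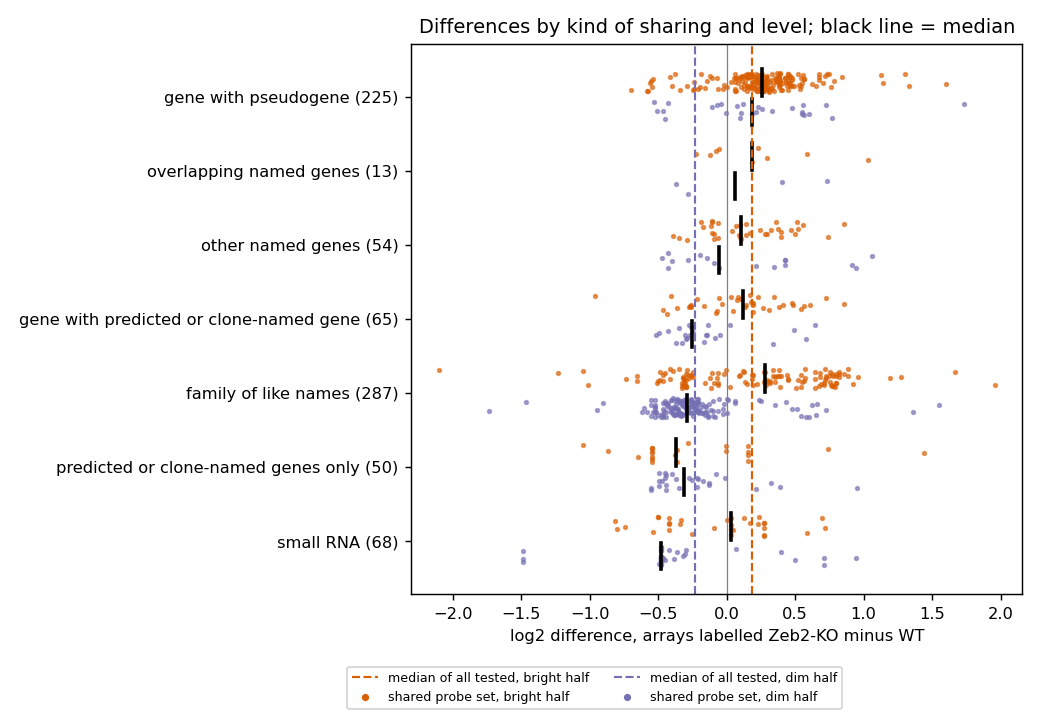
Log2 difference (arrays labelled Zeb2-KO minus WT, x axis) of each shared probe set by kind of sharing (rows, number of probe sets in brackets), with bright ones in orange and dim ones in purple, the median of each as a black line and the medians of all tested probe sets dashed (0.18 and -0.23). Bright probe sets of predicted genes only lie below 0 at the median, and dim ones with a pseudogene lie above it; the 4 probe sets that repeat 1 symbol are not drawn.

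A beta-globin set had the highest difference of the 766. Globins are the oxygen carriers of red cells, and their transcripts are abundant wherever erythroid cells are present. Probe set 10566254 (Hbb-bt, Hbb-bs, Hbb-b2 and Hbb-b1) read 8.38, 10.2 and 8.53 on the arrays labelled Zeb2-KO, against 6.99, 8.15 and 6.12 on WT arrays. The groups did not overlap, and replicate 2 of the arrays labelled Zeb2-KO stood well above the rest (difference 1.96, SE 0.57, 3.88-fold, limma adjusted p = 0.602). The other beta-globin set, 10566258, differed by 1.67 (SE 0.52) with the same array highest. The alpha-globin sets 10375058 and 10375051 (Hba-a1 and Hba-a2) differed by 0.72 and 0.71, and on both the values without replicate 2 of the arrays labelled Zeb2-KO overlapped WT (0.17 for the first set without that array). All 4 globin sets also lay higher under each scaling, with a median of 1.195 that came to 0.49 after adjustment for array spread. The single-symbol erythroid genes lay the same way (Car2 by 1.72, Rhag by 1.52), and their part in the globin values was not tested.

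Histone probe sets lay higher where they were bright. Histones package DNA, and the replication-dependent cluster genes are transcribed chiefly in S phase. Of 37 histone probe sets 28 lay higher (median 0.68), and 14 of these did not overlap between groups, where 6.9% of all tested lay higher without overlap. Without replicate 2 of the arrays labelled Zeb2-KO the median was 0.37, with 28 still higher. All 28 bright sets lay higher (median 0.72) and none of the 9 dim ones did, beside a median of 0.18 over all bright probe sets. After adjustment for array spread the family median was 0.34 with 24 higher.

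Within the histones, the 7 H2B sets lay higher by 0.76 to 0.82 and all 7 had an unadjusted p under 0.05, where 5.69% of all tested were higher at that p. Set 10408087, which names H4bc24 and many H2bc genes, read 10.5, 10.92 and 10.6 on the arrays labelled Zeb2-KO against 9.32, 10.4 and 9.76 in WT, with no overlap between 10.5 and 10.4 (difference 0.82, SE 0.34, limma adjusted p = 0.673). The 8 sets of the main H3 combination lay higher by 0.65 to 0.78, all 8 without overlap (6.9% of all tested), again with replicate 2 of the arrays labelled Zeb2-KO the highest. Without that array the 8 lay at 0.30 to 0.49. The 5 H4 sets lay higher by 0.68 to 0.80 and both H2A sets by 0.34 and 0.35. These sets name largely the same genes, so they are repeated readings and not separate evidence.

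The replacement histone H3.3, which is made outside S phase, is encoded by H3f3a and H3f3b, and its 6 sets also lay higher, though less evenly. Set 10500896 (H3f3b with Gm6485) read 11.002, 10.4 and 10.4 on the arrays labelled Zeb2-KO, against 8.71, 10.8 and 8.44 on WT arrays, so that WT replicate 2 lay among the other group (difference 1.30, SE 0.53). The 4 H3f3a sets lay between 0.19 and 0.54. The median of the 6 was 0.51, and 0.14 without WT replicate 1. After adjustment for array spread 2 of the 6 lay higher. In contrast, the 9 sets of the testis histones H2al1 and H2al2, all dim, lay lower by 0.52 to 0.55, and 2 of them (identical in value) did not overlap. Cluster histones also had probe sets of their own. The 6 for H2B genes lay at 0.20 to 1.68 (median 0.44), the highest being H2bc4 (SE 0.68), the 2 for H3 genes at 0.08 and 0.39, and the 5 for H4 genes at -0.03 to 0.71 (median 0.37).

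**Figure D2:**
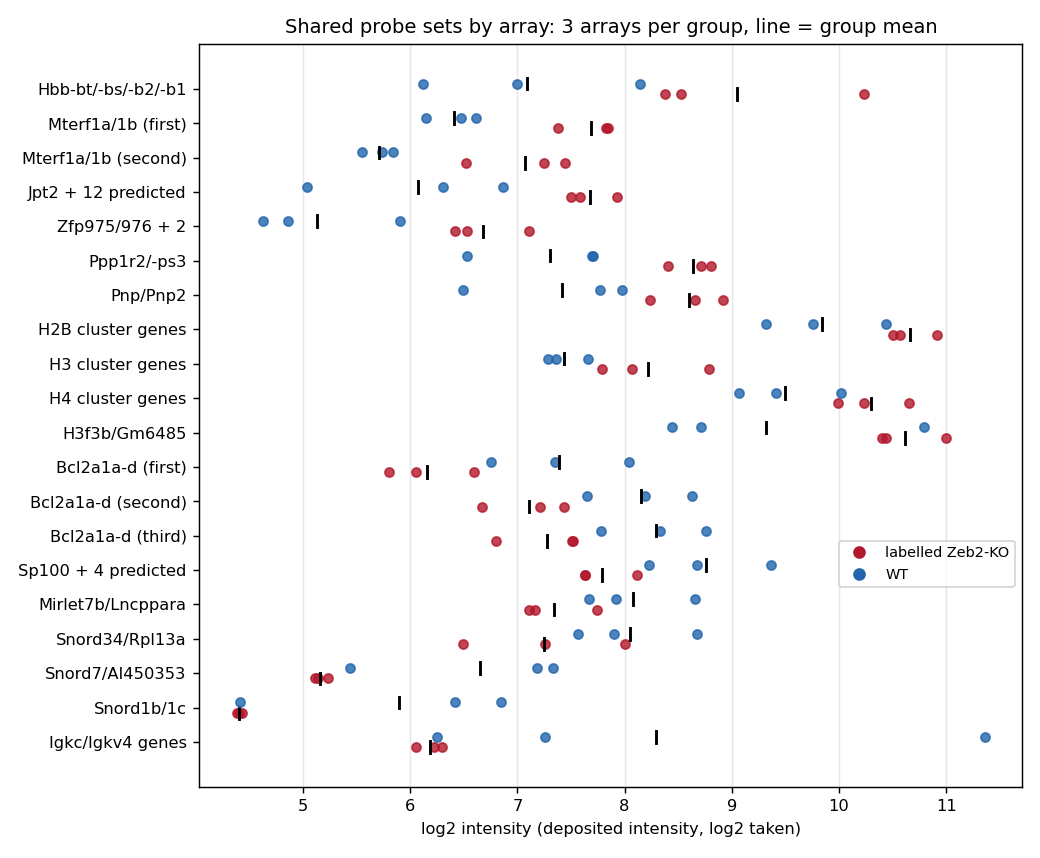
Log2 intensity (x axis) of 20 shared probe sets (rows) on the 3 arrays labelled Zeb2-KO (red) and the 3 WT arrays (blue), with each group's mean as a black line. The 2 Mterf1 sets and the 3 Bcl2a1 sets separate the groups in opposite directions, the beta-globin set has 1 red array at 10.2, and the Igkc set owes its WT mean to 1 array at 11.4; levels of different rows are not comparable.

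Outside these families the clearest separation was at Mterf1a and Mterf1b. Their product acts on transcription of the mitochondrial genome. Set 10527918 read 7.84, 7.83 and 7.38 on the arrays labelled Zeb2-KO, against 6.15, 6.48 and 6.61 on WT arrays, and set 10519472 read 7.44, 7.24 and 6.53 against 5.55, 5.74 and 5.84. Every array of one group lay above every array of the other on both. The differences were 1.27 (SE 0.29, 2.41-fold) and 1.36 (SE 0.32, 2.57-fold), with limma adjusted p = 0.517 and 0.536. They were almost the same after adjustment for array spread (median of the pair 1.29). The signal cannot be assigned to either gene.

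Probe set 10562651 (EU599041, Gm2381, Zfp975 and Zfp976, zinc finger genes) read 6.42, 7.11 and 6.53 on the arrays labelled Zeb2-KO, against 4.86, 5.91 and 4.63 on WT arrays. The groups did not overlap (difference 1.55, SE 0.38, limma adjusted p = 0.536). Zfp975 on its own probe set lay higher by only 0.22 (SE 0.53), with arrays of both groups mixed. Zfp950 with Arid4b (10468881) differed by 1.06 (SE 0.42), and here replicate 1 of the arrays labelled Zeb2-KO read 4.29, inside the WT range. Of all 31 zinc finger sets 26 lay higher (median 0.40; bright 0.35, dim 0.47 with 9 of 11 higher), and 17 did after adjustment for array spread (median 0.07). Without WT replicate 1, 20 lay higher (median 0.21).

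Jpt2, by its name a homologue of a microtubule-associated protein, shared 3 probe sets with the same 12 predicted genes. Set 10412517 read 7.93, 7.50 and 7.59 on the arrays labelled Zeb2-KO, against 5.04, 6.86 and 6.30 on WT arrays, and set 10412491 read 7.28, 6.79 and 7.75 against 4.50, 6.47 and 5.65. WT replicate 1 was the lowest on both and the groups did not overlap (differences 1.605, SE 0.43, and 1.73, SE 0.47). The third, 10417769, differed by 0.68 (SE 0.28). The probe set for Jpt2 alone went the other way at -0.37 (SE 0.64), with both groups mixed, so shared and own sets differed in sign.

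Ppp1r2 encodes inhibitor 2 of protein phosphatase 1 and shared 4 probe sets with its pseudogene Ppp1r2-ps3. Set 10594636 read 8.81, 8.71 and 8.40 on the arrays labelled Zeb2-KO, against 6.53, 7.69 and 7.70 on WT arrays (difference 1.33, SE 0.36, limma adjusted p = 0.581). Sets 10540072 and 10441509 differed by 1.13 (SE 0.37) and 0.84 (SE 0.28), also without overlap, and set 10467003 by 0.39 (SE 0.36) with overlap. Ppp1r2 on its own probe set differed by 0.32 (SE 0.29). Set 10467003 was the least stable, at 0.13 without replicate 2 of the arrays labelled Zeb2-KO and -0.15 after adjustment for array spread.

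Enzyme and chromosome genes completed the higher side. Pnp and Pnp2 (10414527), purine nucleoside phosphorylases that salvage purines, read 8.66, 8.92 and 8.24 on the arrays labelled Zeb2-KO, against 7.77, 7.98 and 6.49 on WT arrays. The groups did not overlap, with WT replicate 3 far below (difference 1.19, SE 0.40), and Pnp alone differed by 0.57 (SE 0.51). Utp14b with Acsl3 (10347748) differed by 1.03 (SE 0.31). The first is a ribosome assembly factor retained as a retrogene inside the second, an acyl-CoA synthetase gene. Hjurp, the chaperone that loads centromeric histone, shared 10356461 with 6430706D22Rik at 0.86 (SE 0.32). Neither of these sets overlapped between groups.

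On the lower side the 3 Bcl2a1 sets were the most even. Set 10587683 read 6.06, 5.81 and 6.596 on the arrays labelled Zeb2-KO, against 8.04, 6.76 and 7.35 on WT arrays. Sets 10595633 and 10587690 read 7.21, 6.67 and 7.43 against 8.63, 7.65 and 8.19, and 7.52, 6.80 and 7.51 against 8.76, 7.78 and 8.33. The order of arrays was alike on all 3, WT replicate 1 being highest and replicate 2 of the arrays labelled Zeb2-KO lowest, with no overlap. The differences were -1.23 (SE 0.37), -1.05 (SE 0.34) and -1.01 (SE 0.34), with limma adjusted p = 0.606, 0.620 and 0.656, and their median was -0.59 after adjustment for array spread. Genes of B lymphoid cells (9 of 9, Ms4a1 at -2.06 and Cd22 at -0.91) and of monocytes and dendritic cells (8 of 9, Ctss at -1.12 and Cd74 at -0.98) lay lower on the same arrays, and their part in the Bcl2a1 values was not tested.

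Sp100, a nuclear body component induced by interferon, shared set 10356262 with Gm7592 and 3 other predicted genes. It read 7.63, 8.12 and 7.63 on the arrays labelled Zeb2-KO, against 9.36, 8.23 and 8.67 on WT arrays, with no overlap (difference -0.96, SE 0.34). Sp100 alone also lay lower at -0.66 (SE 0.29). The pair 9930111J21Rik1 and 9930111J21Rik2, of which the product is not characterised, had sets at -1.05 and -0.87, both with overlap. Interferon-linked sets did not run 1 way. Tgtp1 and Tgtp2, interferon-inducible GTPases, had sets at 0.96 (SE 0.59) and 0.56 (SE 0.61), and both turned to lower after adjustment for array spread. In all, 8 of the 18 sets of interferon families lay higher, with a median of -0.04 (bright 0.16, dim -0.15).

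Immunoglobulin light chains, made by B cells and plasma cells, had sets that lay lower and varied among the WT arrays. Set 10545184 (Igkc with Igkv4-59, Igkv4-70 and Igkv4-80) read 6.22, 6.05 and 6.30 on the arrays labelled Zeb2-KO, against 7.26, 6.25 and 11.4 on WT arrays. Replicate 3 of WT stood far above every other array, and the difference of -2.102 (SE 0.98) was -0.57 without it. The same array was highest on sets 10545187 and 10545196, at 9.65 and 8.73. Immunoglobulin sets lay lower in 12 of 13 cases (median -0.48), but 5 of the 13 lay higher after adjustment for array spread (median -0.12). The unadjusted median was -0.28 with WT replicate 3 left out, and -1.005 with WT replicate 2 left out. The exception was 10403021 (Igha and Ighv1-33), which read 6.98 on replicate 1 of the arrays labelled Zeb2-KO and 3.69 to 4.37 elsewhere, a difference of 0.72 (SE 0.68). Both probe sets for Igha alone, the heavy chain of IgA, lay lower at -1.34 and -1.35.

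Receptor families not used by stem cells were also read. All 21 T cell receptor sets, 10 of them dim, lay lower (median -0.31), although 14 lay higher after adjustment for array spread. Of 68 olfactory, vomeronasal and taste receptor sets 64 lay lower (median -0.33), and 65 of the 68 were dim, for which the median over all tested probe sets was -0.23. After the same adjustment 31 of the 68 lay higher at a median of -0.02. These receptors serve chemical senses such as smell and taste in sensory cells, and none of the 68 had an unadjusted p under 0.05.

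Among small RNAs, Snord7 with AI450353 (10379652) read 5.12, 5.14 and 5.23 on the arrays labelled Zeb2-KO, against 7.33, 7.18 and 5.44 on WT arrays. The 3 former arrays were close together, and WT replicate 3 lay just above them (difference -1.49, SE 0.45, limma adjusted p = 0.606). The limma adjusted p was 0.044 without WT replicate 3, which is the WT array nearest the other group. Snord1b with Snord1c had 2 sets, 10382844 and 10386093, with identical values of 4.40, 4.38 and 4.43 against 6.84, 4.42 and 6.42. WT replicate 2 lay with the other group here (difference -1.49, SE 0.52, limma adjusted p = 0.656). The limma adjusted p was 0.032 only when this contrary array was left out. Leaving out any other array brought neither the Snord7 set nor the Snord1 sets under 0.05, apart from WT replicate 3 for Snord7. Both Snord1 sets were dim. Snord7 and the Snord1 RNAs are box C/D small nucleolar RNAs, which guide methylation of other RNAs.

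Host genes and their small RNAs could be set side by side at Rpl13a, a ribosomal protein gene whose introns hold snoRNAs. The set for Snord34 with Rpl13a (10563110) differed by -0.80 (SE 0.42) and that for Snord32a with Rpl13a (10563114) by -0.81 (SE 0.38), both with overlap. The set 10563101, which names Rpl13a with Zfp526, differed by 0.06 (SE 0.29). At Hspa8, the constitutive HSC70 chaperone, both sets shared with Snord14c and Snord14d lay higher, by 0.72 and 0.69 (SE 0.38 each), and its own set by 0.24 (SE 0.28). Replicate 2 of the arrays labelled Zeb2-KO read 10.3 and 10.4 on the 2 shared sets, above every other array, and without it their median was 0.30.

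The let-7b set (10425985, sequence above) read 7.74, 7.17 and 7.11 on the arrays labelled Zeb2-KO, against 8.65, 7.67 and 7.92 on WT arrays, a difference of -0.74 (SE 0.34). Only replicate 1 of the arrays labelled Zeb2-KO reached into the WT range. The neighbouring let-7c set (10425983) differed by -0.42 (SE 0.32), with the arrays in a like order. Both sets also name Lncppara, so host and microRNA cannot be separated. The 2 Mir3084 sets had identical values, 4.99, 4.28 and 4.37 against 3.59, 3.997 and 3.93, without overlap (difference 0.71, SE 0.30). These 2 were among 12 probe sets with a microRNA gene, of which 5 lay higher (median -0.30).

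Housekeeping genes with many pseudogenes gave small differences. Ribosomal protein genes, which supply the protein part of the ribosome, made up 86 sets, of which 71 lay higher (median 0.23, 85 of 86 bright). None of the 86 separated the groups, where 13.2% of all tested did. After quantile normalization 54 lay higher, and after adjustment for array spread 21 lay higher (median -0.10). Without WT replicate 1, 55 lay higher (median 0.095). Translation and splicing factors lay higher in 12 of 13 sets (median 0.39), led by Eif4a3 with Eif4a3l1, a helicase of the exon junction complex, at 0.69 (SE 0.34) and 0.57 (SE 0.28). The only single-symbol probe set of these genes stood at -0.03. After adjustment for array spread 8 of the 13 lay higher (median 0.10). Alpha-tubulin sets naming Tuba1b lay higher by 0.50 to 0.54 in 4 of 4 cases, with replicate 2 of the arrays labelled Zeb2-KO highest. Without that array they lay at 0.25 to 0.33, and after adjustment for array spread their median was 0.06 and the set 10592058 lay below 0. Of 9 sets with mitochondrial energy genes 7 lay higher (median 0.13), while 1 did after quantile normalization and 3 after adjustment for array spread.

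Probe sets with exactly the same names mostly gave close values. Of the 151 symbol combinations with several probe sets, 132 had more than 1 profile. The range of their differences had a median of 0.10, and 10 combinations held both signs. Such sets read the same samples on the same arrays, so their closeness says nothing about the spread between samples. Rpl30 had 10 sets between 0.38 and 0.45, and Gapdh, the glycolytic enzyme often used as a reference, had 9 between 0.24 and 0.27. The 12 sets of Hmgb1 with its like-named copies, a chromatin protein, ran from 0.08 to 0.27. For the 21 sets that name Hmgb1 at all, 21 lay higher, but 15 did after quantile normalization, 10 after adjustment for array spread and 1 without WT replicate 1. The widest range was 1.06, at the Jpt2 combination given above.

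A few combinations split. Gm4724 with 8 further predicted genes had 11 sets in 2 profiles, 7 sets at -0.54 and 4 at 0.15. In the first profile replicate 1 of the arrays labelled Zeb2-KO read 7.40 and every other array 8.87 to 9.68. The 24 Snord116 sets lay at -0.48 to -0.30, and on the largest block WT replicate 1 read 5.58 while the other arrays read 3.38 to 4.12. Without that array the median over the 24 was 0.16 and all 24 lay higher. These combinations were chosen after their values were seen.

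**Figure D3:**
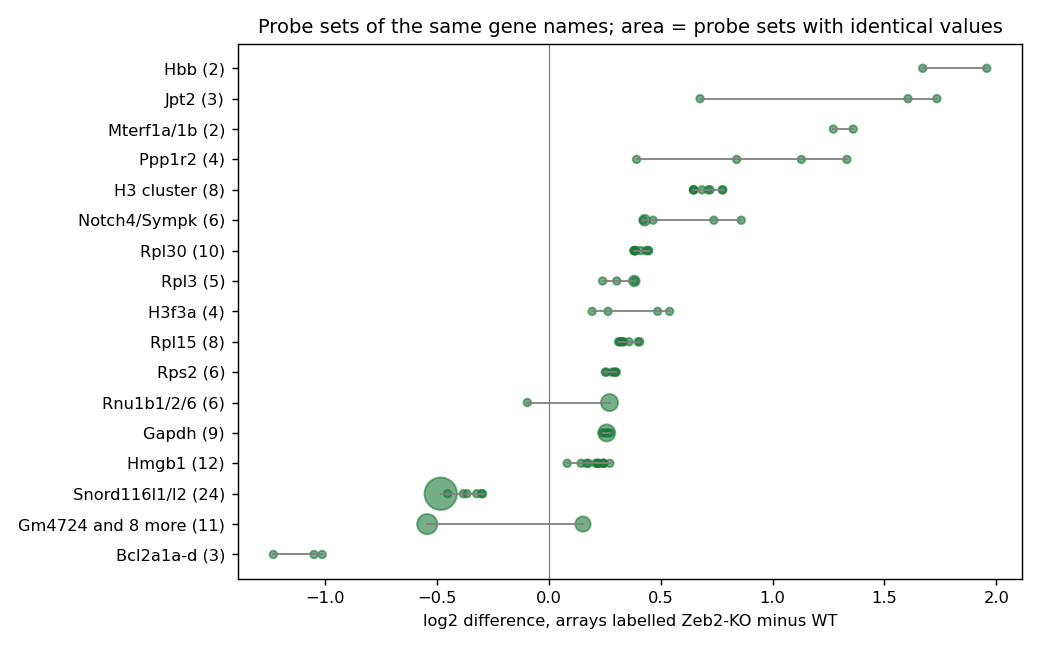
Log2 difference (arrays labelled Zeb2-KO minus WT, x axis) of all probe sets of 17 symbol combinations (rows, number of probe sets in brackets), with symbol area in proportion to the number of probe sets of identical value and a grey line over the range. Rpl30, Gapdh and the H3 cluster are tightly packed, Jpt2 and Ppp1r2 are spread out, and the Gm4724 combination lies on both sides of 0.

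For 323 shared probe sets at least 1 of the named genes also had a probe set of its own. The sign of the difference was the same in 239 of the 323, and the correlation between shared and own difference was 0.30 across these 323 pairs, which share arrays and often genes and are given as a description. The absolute gap had a median of 0.26 and exceeded 1 for 29 shared sets. Fyb, an adaptor of immune receptor signalling, differed by 1.603 (SE 0.43) alone and by 0.52 on both sets shared with Phb, the mitochondrial prohibitin. These shared sets stood at 0.0353 and 0.0267 without WT replicate 1, and both were below 0 after adjustment for array spread. Gstp1, a glutathione transferase, differed by 1.62 (SE 0.64) alone and by 0.57 and 0.54 on the sets shared with Gstp2, which stood at 0.24 and 0.19 without replicate 3 and at 0.88 and 0.86 without replicate 1 of the arrays labelled Zeb2-KO. In reverse, Mtfr1 with Plppr1 (10490955) differed by 0.94 where Plppr1 alone stood at -0.20.

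**Figure D4:**
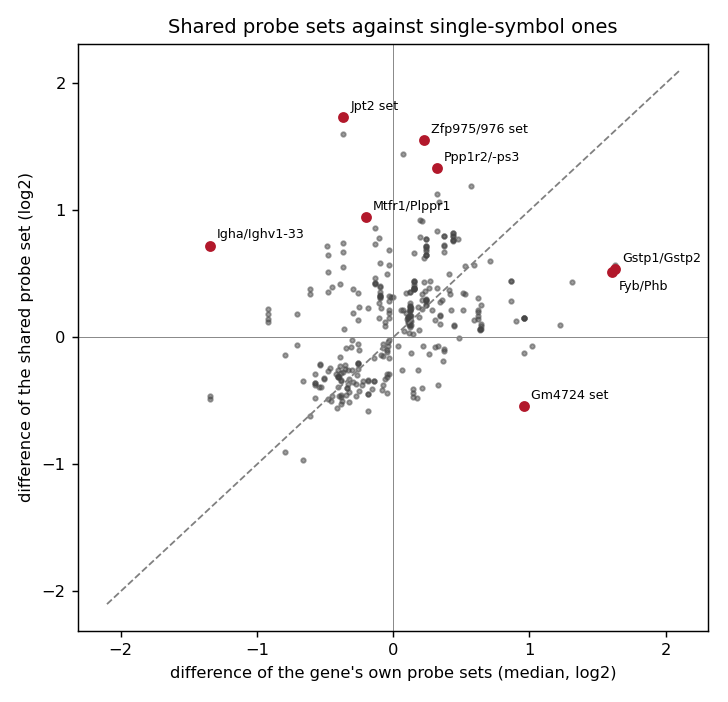
Log2 difference of each of 323 shared probe sets (y axis) against the median difference of the single-symbol probe sets of the same genes (x axis), both as arrays labelled Zeb2-KO minus WT, with the dashed line marking equal values. Most points lie within 1 unit of the line, and the red points (the Jpt2, Igha, Zfp975, Ppp1r2, Mtfr1, Fyb, Gstp1 and Gm4724 sets) lie further away.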

How the data were processed

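Amplified, biotin-labelled total RNA was hybridised to mouse gene arrays, 1 array per sample. The deposited values are intensity on a linear scale, made by the authors with RMA per the submitters' processing notes (software and version not given in the sources used here). The log2 was taken before any test. Array values carry no read depth, and 3 arrays per group limit the precision.

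Zeb2-KO was compared with WT in limma 3.58.1 (R 4.3.3; lmFit and eBayes, 4 residual and 6.87 prior degrees of freedom). Adjusted p is Benjamini-Hochberg over the 14610 probe sets. SE is limma's. A call was an adjusted p under 0.05. The procedure was tested on simulated data with independent noise and changes larger than any difference of a shared probe set. That test does not show whether changes of the size reported here would be found. Symbols were taken from the platform annotation; RefSeq (GRCm38.p6) gave gene types, chromosomes and sequences, and held 1136 of 1149 gene identifiers. Kinds of sharing were assigned from names and gene types.

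Named are the 12 highest and 12 lowest probe sets by unadjusted p among bright ones changed at least 1.5-fold, up to 3 per family, a list of blood genes, and the largest and smallest gaps to single-symbol sets. Others (such as the second Mterf1 set, the let-7c, Mir3084, Gstp1, Mtfr1, Fyb, Hspa8, Tuba1b, Snord116, Gapdh, Hmgb1 and Rpl30 sets) were chosen after their values were seen. Members and lists were chosen with earlier results of these data known. Alternatives were a dim filter, quantile normalization, median centring, trended and robust priors, array weights, the replicate block, array spread, the unannotated block, a stricter member rule and leaving out each array.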

Additional observations from a re-analysis of the deposited data

How the results depend on the processing

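The count of shared probe sets past adjusted p 0.05 was 0 in limma (52 at an unadjusted p under 0.05) and stayed 0 except with array weights (31, from a fit of the weights that did not converge) and when an array was left out (0 to 2). The count at an unadjusted p under 0.01 and 1.5-fold was 12, and came to 4 among bright probe sets, 7 after quantile normalization, 74 with array weights, 6 with array spread, 3 with the unannotated block included, and 6 to 36 without 1 array (36 without WT replicate 2, 6 without replicate 2 of the arrays labelled Zeb2-KO). The 88 without overlap became 52 among bright probe sets and 47 of 368 under the stricter member rule; with 1 array fewer, where non-overlap is easier to reach, they were 107 to 316, the lowest without replicate 2 and the highest without replicate 1 of the arrays labelled Zeb2-KO. The median difference of 0.03 was 0.22 among bright probe sets, -0.0386 after quantile normalization, -0.13 under the stricter member rule and -0.0359 to 0.119 without 1 array. The causes of these moves were not tested.

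Whether the replicate numbers pair the samples is not known, and the main comparison treated them as unpaired. Same-numbered deviations from the group means correlated at 0.36, 0.41 and 0.047. Each of these lay above the values for differently numbered arrays (-0.38 to 0.030). With the replicate block 0 shared probe sets passed, 133 had an unadjusted p under 0.05 and 16 met the second rule.

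Among 94 named probe sets, 45 of 1391 differences changed sign, on 24 probe sets. After adjustment for array spread these were both Tgtp1 and Tgtp2 sets (-0.17 and -0.49), Tuba1c with Tuba1b (-0.0515), let-7c (0.0187), Fyb with Phb (-0.101 and -0.0851), Ppp1r2 set 10467003 (-0.15), Rpl13a with Zfp526 (-0.20), the Gm4724 sets that lay higher (-0.39) and the 4 H3f3a sets (-0.000731, -0.00707, -0.0381 and -0.0343). After quantile normalization they were Rpl13a with Zfp526 (-0.0365), H3f3a set 10411776 (-0.00867) and the same Gm4724 sets (-0.0421), which stood at -0.29 with array weights. With 1 array left out, Igha with Ighv1-33 ran from -0.30 to 1.34, the second Tgtp set from -0.0532 to 1.18, Rpl13a with Zfp526 from -0.0629 to 0.23, the Gm4724 sets that lay lower from -1.02 to 0.12 and those that lay higher from -0.27 to 0.43. Another 27 values passed adjusted p 0.05 when the reported one did not, nearly always with array weights. No detection call was used, so whether the 298 dim probe sets lay above background is not known here.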
